A study of Homo sapiens with 16 samples.

Results

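Isolated focal sites of RNA polymerase II (Pol II) are short stretches of the genome that were bound in every condition and had no other Pol II region nearby. Peaks of the 3 Pol II lists were merged wherever they overlapped by 1 bp or more. A merged region was kept if it was under 2 kb wide, held a peak in all 3 lists and had no other merged region within 10 kb. This gave 4152 sites among 104562 merged regions (3.97%), or 12.2% of the 34044 regions with a peak in all 3 lists. The sites were thus chosen by the measured peak positions, and their widths and their differences between lists are given as a description, with no test.

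Pol II was mapped by ChIP-seq (sequencing of immunoprecipitated chromatin) with an antibody to RPB1, its largest subunit, in hTERT RPE-1. This is a wild type line of human retinal pigment epithelium that divides on with the help of telomerase, and no marker of the tissue could be checked, since the files hold peak positions only. Every group was held for 48 h in 0.1% serum. The Pol II groups were control cells (3 libraries with the vehicle DMSO for 30 min and 3 untreated), 30 min of 200 uM merbarone (3 libraries) and 1 h of 200 uM merbarone (2 libraries). DNA topoisomerase II alpha (TOP2A) was mapped in untreated cells (2 libraries). Each condition has 1 peak list for all its libraries, so nothing below has a spread between replicates, no list separates vehicle from untreated cells, and no vehicle list matches the 1 h time. Read depth is unknown. Intervals in parentheses are 95% intervals for counting alone: sites are not replicates of a condition.

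Pol II starts at promoters and often pauses a short way into the gene. It also sits at active enhancers, and along the body of genes that are being read. Narrow peaks are the usual picture of the first kinds of place, and long or broken stretches that of the last. Moving Pol II overwinds the DNA ahead of it and underwinds the DNA behind it, and topoisomerases such as TOP2A relieve both. Merbarone stops the catalytic cycle of topoisomerase II before DNA is cut. Genes were not assigned to the sites, because positions are on hg19 and no annotation or sequence of that build was used here; whether a given site is a promoter or an enhancer is therefore not stated.

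The rule fixed that the sites were short and bound in all lists, and how short and how far shared is given here. The merged site had a median width of 959 bp, from 179 bp to 1995 bp, and the middle 50% lay between 635 and 1306 bp. The span of Pol II in a site, taken from the first start to the last end of a list's peaks there, had a median of 814.5 bp in control (796 to 831), 823.5 bp after 30 min of merbarone (808 to 841) and 885 bp after 1 h (865 to 901). The core shared by the spans of all 3 lists, with gaps between peaks counted in, made up a median of 76.0% of the merged site. It was at least 80% of the site in 1600 sites (38.5%), under 20% in 77 sites (1.85%), and in 20 of all sites (0.482%) the 3 spans shared no base at all.

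**Figure D1:**
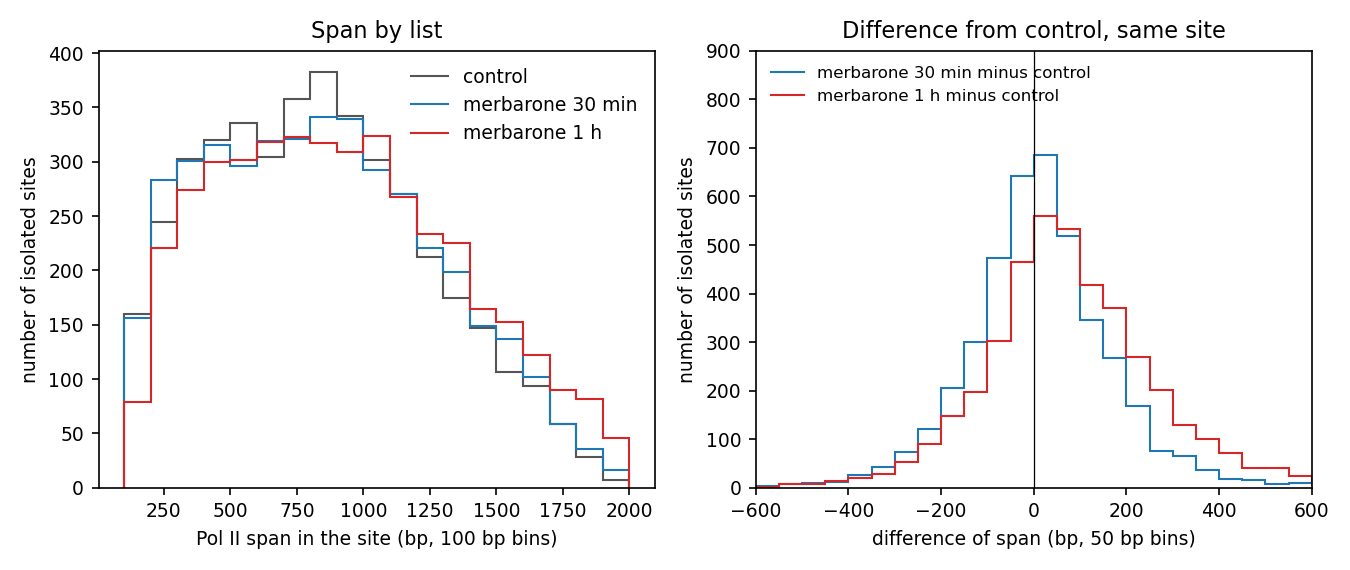
Number of isolated sites by Pol II span in each list (left, 100 bp bins) and by the difference of span from control at the same site (right, 50 bp bins). Each line is 1 peak list over the 4152 sites; the median difference is 9 bp at 30 min and 65 bp at 1 h.

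Most sites were also unbroken. In 3036 of them (73.1%, 71.8 to 74.4) each list had exactly 1 peak. More than 1 peak was called in 702 sites in control (16.9%), 555 sites at 30 min (13.4%) and 267 sites at 1 h (6.43%). The lists also differ in the gaps they hold, and the part of this in the order was not tested beyond closing small gaps, as given below. The smallest gap between 2 peaks was 1 bp in the control list, 1 bp in the 30 min list and 38 bp in the 1 h list. Once gaps of up to 37 bp were closed in each list, the broken sites numbered 418 in control, 318 after 30 min and 267 after 1 h. The sites held 5.64% of control peaks, 5.54% of peaks at 30 min and 5.42% of peaks at 1 h, and 7.97%, 7.29% and 6.46% of the bases in those lists.

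Some sites hardly differed between lists. On chromosome 10 from 76584710 to 76586702 lay the site with the widest control span, which was 1989 bp in control, 1984 bp after 30 min and 1972 bp after 1 h. No edge of it moved by more than 15 bp, and 2 TOP2A peaks lay in it. A site of 1896 bp on chromosome 8 from 98655772 to 98657667 moved by 10 bp at most, with spans of 1893, 1887 and 1873 bp in the same order. Narrow sites could be as steady: on chromosome 15 from 74392434 to 74392682 the spans were 249, 241 and 239 bp, and on chromosome 22 from 51221914 to 51222141 they were 217, 224 and 217 bp. The other steady sites by the same measure were on chromosome 18 (46986421 to 46987241) and chromosome 7 (5938167 to 5938364), with largest edge shifts of 10 and 12 bp.

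After 30 min of merbarone the sites were about as wide as in control. The median ratio of span, 30 min over control, was 1.01 (1.01 to 1.02), and the median difference was 9 bp (5 to 12). Of the 4152 sites, 2215 were wider (53.3%, 51.8 to 54.9) and 1924 were narrower (46.3%). Of all regions with a peak in all 3 lists, 58.4% were wider and 41.4% narrower, with a median ratio of 1.03. A span wider by at least 1.5-fold was found in 199 sites (4.79%), and a span narrower by as much in 220 sites (5.30%). Over all 34044 regions with a peak in all 3 lists the shares were 15.9% wider and 8.23% narrower; the rule used these same widths, so nothing is read from the gap. The smallest peak of the 30 min list, at 150 bp, was 14 bp wider than the smallest control peak, which is more than the median difference between the spans. With every span at 30 min shortened by those 14 bp, the median ratio was 0.993, on the other side of 1.

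After 1 h of merbarone the sites were slightly wider. The median ratio of span, 1 h over control, was 1.08 (1.08 to 1.09), and the median difference was 65 bp (59 to 70). The span was wider at 1 h in 2791 sites (67.2%, 65.8 to 68.6) and narrower in 1346 (32.4%). Over all 34044 regions with a peak in all 3 lists, 70.7% were wider and 29.1% narrower, with a median ratio of 1.11. The rule used these widths, so nothing is read from the gap here either. In the isolated sites the span was wider by at least 1.5-fold in 443 (10.7%) and narrower by as much in 155 (3.73%). Over all regions with a peak in all 3 lists these shares were 23.1% and 5.23%. The smallest peak of the 1 h list was 159 bp, which is 23 bp wider than in control. With every span at 1 h shortened by those 23 bp, the median ratio was 1.05, and the part of the smallest width in the difference was not tested further. Against 30 min, spans at 1 h had a median ratio of 1.06 (1.06 to 1.07). That comparison had 374 sites wider by 1.5-fold (9.01%) and 121 narrower (2.91%), beside 16.2% and 6.09% of all such regions. The comparisons with control share the control list, so their values are not independent of each other.

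The control span sets how far a ratio can go, since it is the denominator and the merged site is held under 2 kb; the spans of sites past 1.5-fold are therefore given as values only. The 443 sites wider at 1 h had a median span of 327 bp in control, 425 bp after 30 min and 621 bp after 1 h. The 3554 sites within 1.5-fold at 1 h had medians of 874.5, 881.5 and 942 bp. Classes were also set by the list that is not in the ratio, which the 2 kb limit holds too. By span at 30 min, the difference between 1 h and control had a median of 35 bp in sites under 250 bp, 44 bp from 250 to under 500 bp, and 62 bp from 500 to under 1000 bp. It was 85 bp from 1000 to under 1500 bp and 120 bp in wider sites. The ratio did not rise with the class, with medians of 1.15, 1.12, 1.08, 1.07 and 1.08 in the same order. In all, 3334 sites (80.3%) stayed within 1.5-fold of control at both times, 135 were wider past it at both times, and 48 were narrower at both. Both ratios divide by the same control span, so a call at both times is no separate support. These counts were not made over all regions, and nothing is read from them.

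The median edge shift at 1 h was outward on the left and on the right, but most sites did not have both edges farther out. An edge shift is counted as positive where the outermost Pol II edge under merbarone lay farther out than in control. Left is the lower coordinate, since the strand of transcription is not known. Either side can thus be upstream or downstream, so like medians do not show that both edges of a site moved. At 1 h the median shift was 25 bp on the left (22 to 28) and 24 bp on the right (22 to 28). The left edge lay farther out in 62.2% of sites and the right edge in 61.7%. Over all regions with a peak in all 3 lists, the left edge lay farther out at 1 h in 64.2% and the right in 63.8%. Their median shifts were 39 bp (left) and 37 bp (right) at 1 h, and 11 bp on either side at 30 min. Both edges lay farther out in 1683 sites (40.5%, 39.1 to 42.0), both lay farther in in 661 (15.9%), and 1737 (41.8%) had 1 edge out and 1 in. At 30 min the median shift was 3 bp on either side, both edges lay out in 1138 sites (27.4%) and both in in 988 (23.8%). With spans shortened by each list's excess smallest width, the median shift was 13.5 bp on the left and 12.5 bp on the right at 1 h, and at 30 min it turned to -4 bp on either side.

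Single edges moved more than these medians show. The median size of a shift, in either direction, was 50 bp on the left and 51 bp on the right at 30 min, and 64 bp on either side at 1 h. Shifts of over 200 bp were found at 314 left edges (7.56%) and 299 right edges (7.20%) at 30 min. At 1 h they were found at 508 left (12.2%) and 465 right edges (11.2%). Over all regions with a peak in all 3 lists these shares were 19.7% and 19.8% at 30 min, and 23.3% and 23.2% at 1 h. The centre of the span had no common direction of shift, with a median of 0 bp at 30 min and 0.5 bp at 1 h. In either direction it had moved by a median of 41 bp at 30 min and 46.5 bp at 1 h. The move was 50 bp or less in 57.4% and 53.0% of sites, and 100 bp or less in 83.3% and 80.3%.

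**Figure D2:**
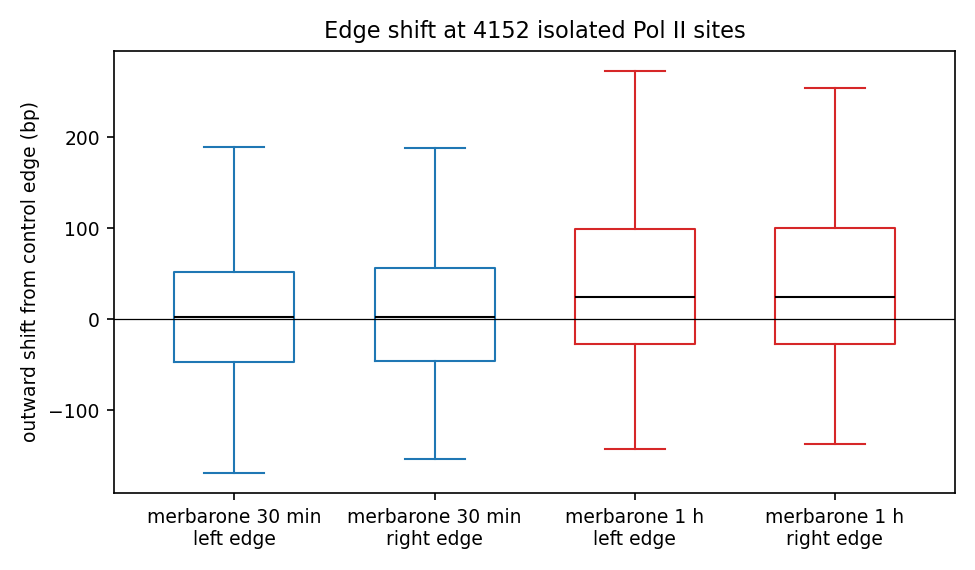
Outward shift in bp of the left and right edge of Pol II at the 4152 isolated sites, at 30 min and at 1 h of merbarone, each against control. Boxes hold the middle 50% of sites, the line is the median and the whiskers run from the 5th to the 95th percentile; medians are 3 bp for both edges at 30 min, and 25 bp (left) and 24 bp (right) at 1 h, for spans as deposited.

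The 5 largest gains of span at 30 min and the 5 at 1 h, picked for their size, were at 8 sites. On chromosome 1 from 230830138 to 230831359 the span was 194 bp in control, 1111 bp after 30 min and 980 bp after 1 h, and both edges lay out by at least 325 bp at either time. On chromosome 6 from 17417629 to 17419513 it measured 935 bp in control, 1885 bp after 30 min and 1829 bp after 1 h. A site on chromosome 15 from 45694032 to 45695918 was wider on its right side: spans were 982, 1884 and 1777 bp, and the left edge had moved by 10 and 13 bp. The site on chromosome 7 from 138915362 to 138917356 did the same, with spans of 1063, 1763 and 1995 bp and a right edge 685 bp out at 30 min and 865 bp out at 1 h. It is the widest merged site of all. On chromosome 3 from 69022797 to 69023705 the spans were 193, 909 and 579 bp.

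The other 3 sites were picked at 1 h. On chromosome 1 from 247346870 to 247348797 the span was 872 bp in control, 1117 bp after 30 min and 1928 bp after 1 h. On chromosome 12 from 70132259 to 70133668 it was 501, 1114 and 1410 bp, in the same order. The site on chromosome 9 from 73215414 to 73216763 held 223 bp in control and 316 bp at 30 min, in places that did not overlap each other, and 1247 bp at 1 h. It is 1 of the 20 sites with no base common to the 3 spans.

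The next 5 sites were picked as the largest losses of span at 30 min, so a smaller loss in the other merbarone list is no sign of a return. On chromosome 8 from 142163471 to 142164582 Pol II spanned 1028 bp in control in 3 pieces, 180 bp after 30 min and 1112 bp after 1 h. On chromosome 7 from 134832168 to 134833120 the spans were 953, 170 and 830 bp. The site on chromosome 12 from 29935360 to 29937100 holds 1 TOP2A peak and spanned 1741 bp in control, 937 bp after 30 min and 1730 bp after 1 h. The site on chromosome 3 from 71113224 to 71114763 spanned 1540 bp in control, 743 bp after 30 min and 1265 bp after 1 h. That on chromosome 12 from 96252405 to 96253678 had spans of 1274, 608 and 1084 bp. All 5 were in at least 2 pieces in control. So were 16.9% of all sites, and 58 of the 220 sites narrower past 1.5-fold at 30 min (26.4%). A span counts the gaps between its pieces, so the pick itself can favour sites broken in control. Nothing is read from it.

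Another 5 sites were picked as the largest losses at 1 h, and their smaller losses at 30 min are no sign of an order in time. On chromosome 2 from 197457131 to 197458409 the span was 1252 bp in control, 1141 bp after 30 min and 287 bp after 1 h. Its left edge lay 992 bp farther in at 1 h, and its right edge 27 bp farther out. On chromosome 7 from 102920207 to 102921101 the spans were 895, 683 and 166 bp. The spans were 1205, 1136 and 479 bp on chromosome 4 from 171010401 to 171011605. The other 2 lay on chromosome 1, from 115631857 to 115632876 with 909, 830 and 216 bp, and from 241587022 to 241587982 with 884, 684 and 254 bp. Each of these 2 was in 1 piece in control.

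**Figure D3:**
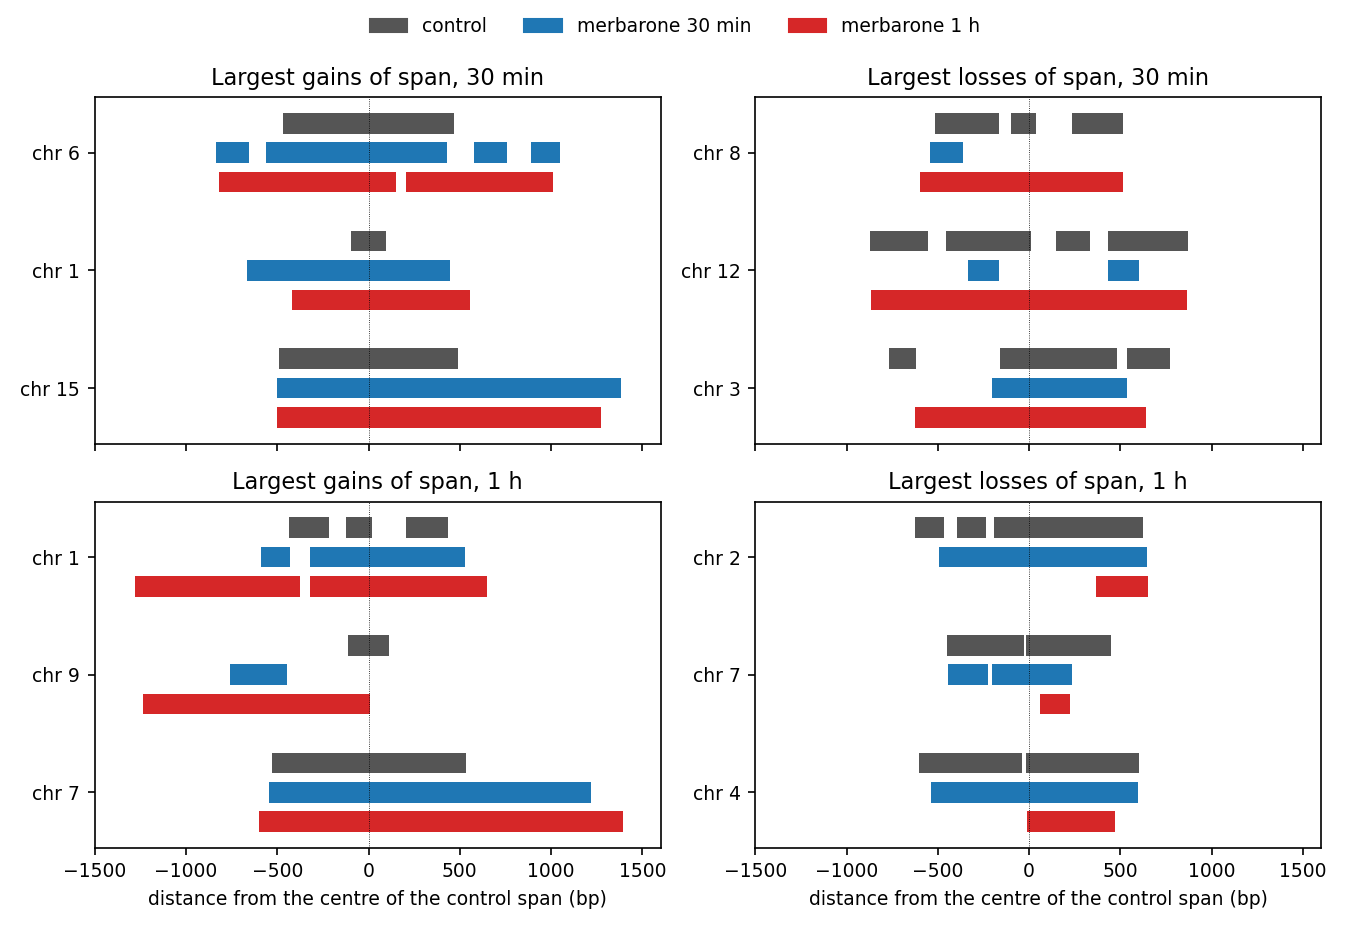
Pol II peaks in the 3 isolated sites with the largest gain and the 3 with the largest loss of span at each merbarone time, drawn as distance in bp from the centre of the control span. Bars are the deposited peaks of control (grey), 30 min (blue) and 1 h (red); the red bar of the first site at 1 h reaches 845 bp beyond the control edge on the left.

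TOP2A in untreated cells was not used to choose the sites. A TOP2A peak lay on 232 of the 4152 sites (5.59%, 4.93 to 6.33), beside 3.35% of all regions with a peak in all 3 Pol II lists. Regions of the same kind that had a neighbour within 10 kb held TOP2A in 363 of 23424 cases (1.55%). These crowded regions were narrower, with a median of 804 bp, so widths were held alike. In sites under 500 bp the share was 1.60% (0.873 to 2.92), against 0.292% (0.180 to 0.474) in crowded regions. From 500 to under 1000 bp it was 3.02% (2.28 to 3.98) against 0.836% (0.670 to 1.04). From 1000 to under 1500 bp it was 7.94% (6.59 to 9.53) against 2.52% (2.13 to 2.97), and from 1500 to under 2000 bp it was 11.2% (8.93 to 13.9) against 4.01% (3.39 to 4.73). The intervals do not overlap in any of these 4 classes. The same held in 4 classes of control span, where the widest had 14.9% (11.3 to 19.4) against 4.67% (3.72 to 5.86). Over all regions in all 3 lists the shares by merged width, narrowest class first, were 0.426%, 1.16%, 3.58% and 5.14%. Most crowded regions lay very close to another: 10687 had a neighbour within 0.1 kb and 9750 at 0.1 to 1 kb. Crowded regions with the nearest neighbour at 1 to 10 kb had higher shares, given in the next paragraph. Isolated regions of 2 kb or more held TOP2A in 63 of 338 cases (18.6%).

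The limit of 10 kb was not a step. Among regions under 2 kb with a peak in all 3 lists, TOP2A was found in 0.983% of those with a neighbour within 0.1 kb and in 1.58% of those with one at 0.1 to 1 kb. It was found in 3.62% at 1 to 5 kb (2.87 to 4.56) and 3.23% at 5 to 10 kb (2.33 to 4.46). In the isolated sites the share was 4.52% at 10 to 20 kb (3.49 to 5.84), 5.51% at 20 to 50 kb and 6.17% at 50 to 100 kb. It was 7.82% at 100 to 250 kb (5.75 to 10.6) and 5.00% beyond (2.74 to 8.96). In the class from 1000 to under 1500 bp the lowest share was 1.56% within 0.1 kb, followed by 2.19% at 0.1 to 1 kb. It was 5.59% at 1 to 5 kb (3.99 to 7.79) and 5.69% at 5 to 10 kb (3.75 to 8.54). These 2 intervals overlap that of the sites at 10 to 20 kb, which held 6.42% (4.42 to 9.24). All distances over 10 kb lay between 6.42% and 9.76%. Whether regions within 1 kb of each other are pieces of 1 longer stretch was not tested.

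**Figure D4:**
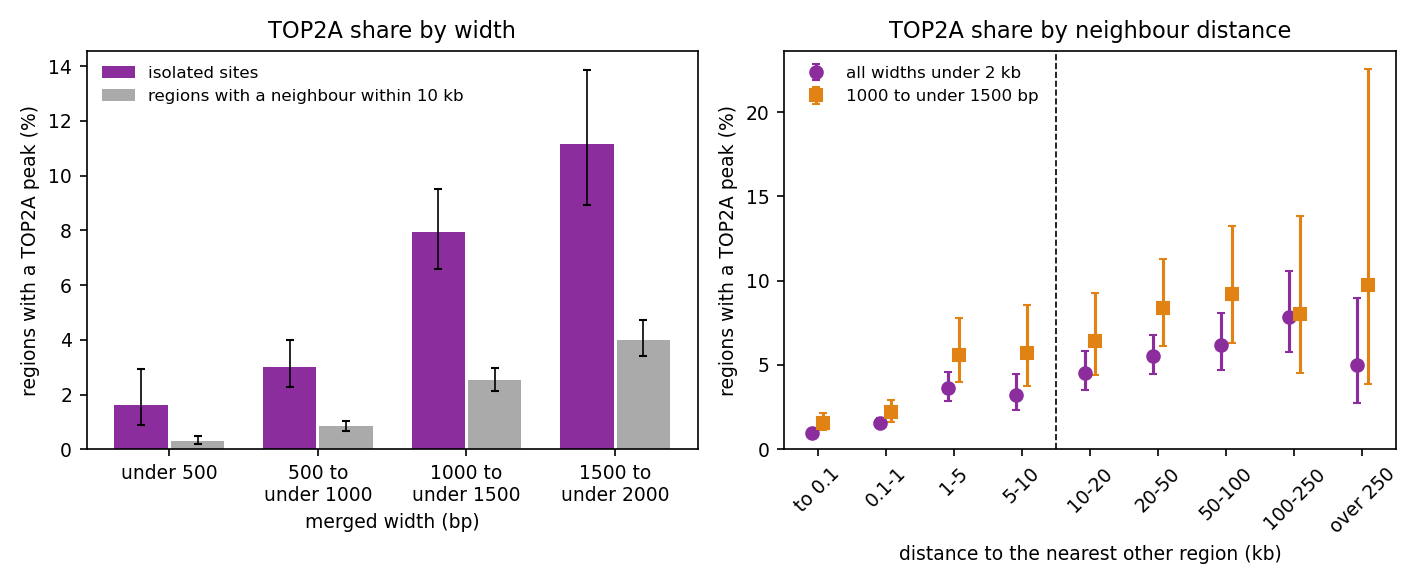
Share of Pol II regions (under 2 kb, in all 3 lists) with a TOP2A peak, by merged width for isolated and crowded regions (left) and by distance to the nearest other region (right, dashed line at 10 kb). Bars and points are shares of regions with 95% Wilson intervals; isolated sites of 1500 to under 2000 bp reach 11.2% and crowded ones 4.01%.

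TOP2A peaks were counted on a site only where they overlapped it, so their midpoints lay inside it almost by design. The 232 sites held 265 of the 1840 TOP2A peaks (14.4%, 12.9 to 16.1), with 1 peak in 202 sites, 2 in 27 and 3 in 3. The midpoint of 217 of these peaks (81.9%, 76.8 to 86.1) lay in the middle 60% of the merged site, and the median distance from its centre was 181 bp. For 89 peaks (33.6%) the midpoint lay within 100 bp of the centre. These places were not compared with an even placement. For 238 (89.8%, 85.6 to 92.9) the midpoint lay within the span of all 3 Pol II lists. On these sites 27.2% of TOP2A peaks stood at the smallest width of the list, 73 bp, against 28.1% over the whole list.

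The 3 sites with 3 TOP2A peaks had these Pol II spans. On chromosome 1 from 210405933 to 210407653 it was 1686 bp in control, 1655 bp after 30 min and 1721 bp after 1 h. On chromosome 10 from 96161866 to 96163845 it was 1768, 1746 and 1980 bp, and the widest of its TOP2A peaks, 220 bp, had its midpoint at -478 bp from the centre, to the left. On chromosome 4 from 141347919 to 141349112 it was 1156, 1102 and 1021 bp. Of the sites with 2 TOP2A peaks, that on chromosome 9 from 90112329 to 90113861 had 1431, 1404 and 1256 bp. On chromosome 8 from 79716430 to 79717822 the span was 1393 bp in control, 757 bp after 30 min and 959 bp after 1 h, with the right edge 620 and 434 bp farther in.

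Sites with TOP2A were wider than those without, but a wider site also has more room for an overlap. The median control span was 1145 bp with TOP2A, against 796 bp without. Per Mb of merged site, TOP2A peaks numbered 45.3 under 500 bp and 41.6 from 500 to under 1000 bp. They numbered 72.4 from 1000 to under 1500 bp and 82.3 from 1500 to under 2000 bp. The median ratio of span was 1.01 with TOP2A (0.992 to 1.03) and 1.01 without (1.01 to 1.02) at 30 min. At 1 h it was 1.07 with (1.04 to 1.09) and 1.09 without (1.08 to 1.09). A span wider by at least 1.5-fold at 1 h was found in 13 sites with TOP2A (5.60%) and 430 without (10.97%), and one narrower by as much in 10 (4.31%) and 145 (3.70%). Over all sites the share wider past 1.5-fold at 1 h fell from 20.2% under 500 bp to 5.42% in the widest class. Width alone can thus set the groups apart. Under 500 bp it was 4 of 10 sites with TOP2A and 122 of 614 without. From 500 to under 1000 bp the shares were 4.17% with and 13.2% without. They were 5.77% and 5.97% from 1000 to under 1500 bp, and 1.43% and 5.92% in the widest class. Few sites with TOP2A stand behind each share. Within width classes the order of the median ratio at 1 h was not the same throughout either. Under 500 bp the ratio was 0.930 in only 10 sites with TOP2A (0.522 to 1.83) and 1.10 without (1.07 to 1.14), with 3 and 51 sites narrower past 1.5-fold. From 500 to under 1000 bp the ratio was 0.915 in 48 sites with TOP2A (0.825 to 1.06) and 1.08 in those without (1.06 to 1.09). From 1000 to under 1500 bp it was 1.09 in 104 sites with TOP2A (1.06 to 1.13) and 1.08 without, and from 1500 to under 2000 bp it was 1.06 in 70 sites (1.01 to 1.11) and 1.10 without (1.09 to 1.12). In this widest class the ratio at 30 min was 0.981 with TOP2A (0.957 to 1.04) and 1.03 without (1.02 to 1.04). The narrower classes had the other order at 30 min. Under 500 bp the ratio was 1.02 with TOP2A and 0.996 without. It was 1.01 and 1.00 from 500 to under 1000 bp, and 1.02 and 1.01 from 1000 to under 1500 bp. The intervals with and without TOP2A overlapped in every class at 30 min.

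Isolated sites were found on all 23 chromosomes that carry Pol II peaks. Chromosome 1 had the most, 466, and chromosome 21 the fewest, 34. Per Mb between the first and last Pol II peak, chromosome 19 had the most at 3.40 and chromosome 21 the fewest at 0.890. Chromosome X stood apart by share: 190 of its 1654 merged regions were isolated sites (11.5%, 10.0 to 13.1). The next was chromosome 18 with 5.95% (4.83 to 7.31), and the lowest was chromosome 16 with 2.08% (1.73 to 2.51). Chromosome X also had the fewest merged regions per Mb, 10.9, against 108 on chromosome 19. Of the regions with a peak in all 3 lists, 27.8% were isolated sites on chromosome X and 6.59% on chromosome 16.

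The small widening at 1 h was found across the genome. All chromosomes come from the same peak lists, so they are no separate support for it. The median ratio of 1 h over control was above 1 on 23 of 23 chromosomes, from 1.05 on chromosome 8 to 1.15 on chromosome 20. At 30 min it was above 1 on 18, from 0.967 on chromosome 16 to 1.04 on chromosome 20.

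TOP2A was unevenly spread over the sites of different chromosomes. The share of sites with TOP2A was 11.8% on chromosome 21 (4 of 34 sites, 4.67 to 26.6), 10.1% on chromosome 10 (6.53 to 15.2), 9.32% on chromosome 15 (5.73 to 14.8) and 8.96% on chromosome 5 (5.74 to 13.7). It was 1.58% on chromosome X (0.538 to 4.54), 1.09% on chromosome 17 (0.299 to 3.88), 1.08% on chromosome 22 (0.190 to 5.84) and 0.926% on chromosome 16 (0.164 to 5.06), where 1 to 3 sites each held TOP2A. On chromosome 19 none of 200 sites held TOP2A, which allows a share of up to 1.5%. The TOP2A list itself had 28 peaks on chromosome 19 and 200 on chromosome 10. The share was higher in isolated sites than in crowded regions under 2 kb on 20 chromosomes and lower on 3, namely 16, 17 and 19. On those 3 the isolated sites with TOP2A numbered 1, 2 and 0. All chromosomes share 1 TOP2A list and widths were not held alike, so these counts are no separate support. Some of the 20 also rest on few sites, such as 1 of 93 against 1 of 456 on chromosome 22.

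**Figure D5:**
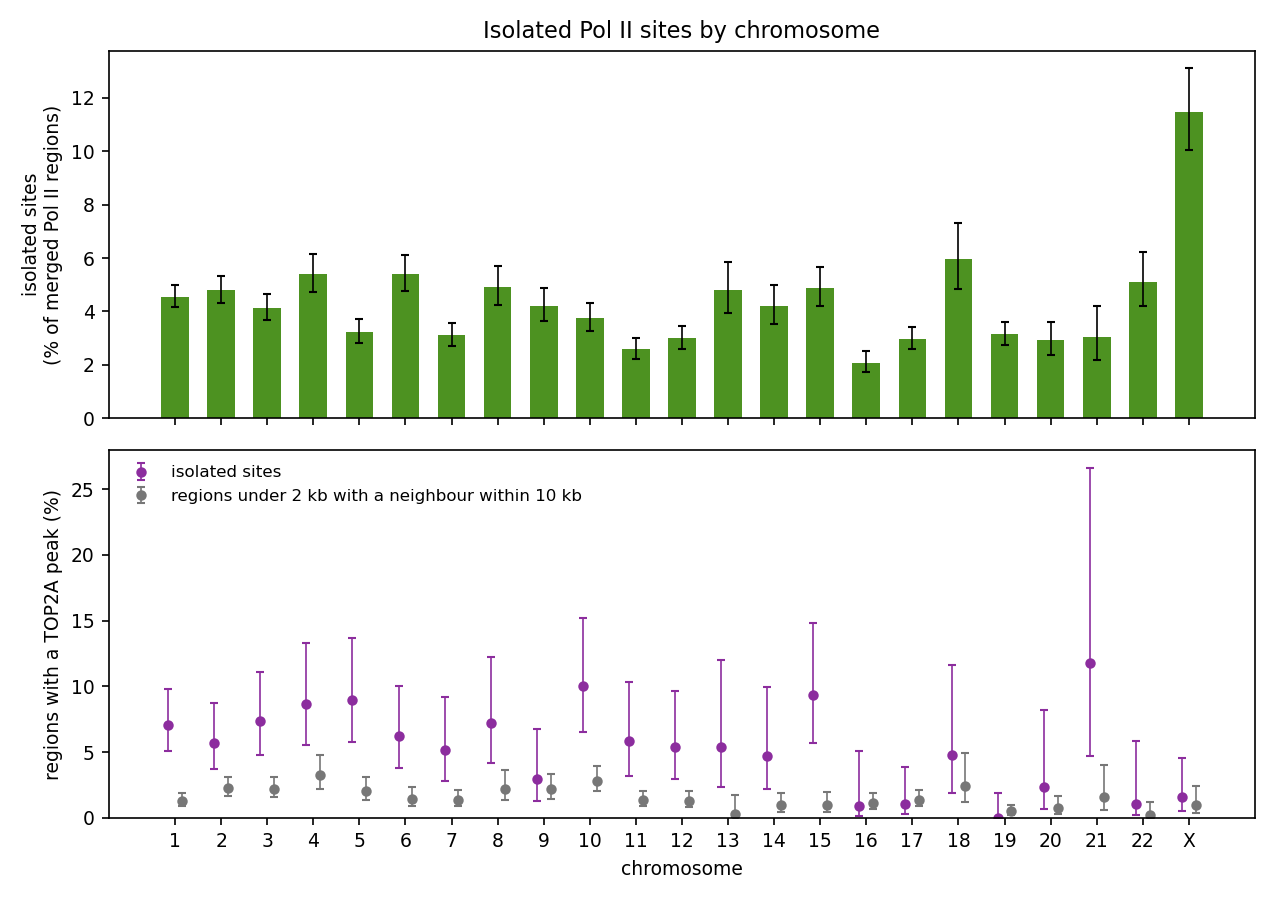
Isolated sites as a share of all merged Pol II regions of each chromosome (top) and share of regions with a TOP2A peak, for isolated sites and for crowded regions under 2 kb (bottom). Error bars are 95% Wilson intervals; chromosome X reaches 11.5% in the upper panel and chromosome 19 stands at 0 for isolated sites in the lower one.

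Isolation ran from just over the limit to several Mb. The nearest other region lay a median of 33.5 kb away, and 200 sites (4.82%) had none within 250 kb. The most remote site, on chromosome 13 from 67803919 to 67805673, stood 4.04 Mb from any other and spanned 1627 bp in control, 1670 bp after 30 min and 1730 bp after 1 h. A site of 236 bp on chromosome 5 from 24644939 to 24645174, 3.19 Mb from any other, spanned 136, 153 and 178 bp. The control span there equals the smallest width of its list, and that at 30 min is 153 bp against a smallest width of 150 bp. The next most remote were on chromosome 13 from 63764739 to 63765148, chromosome X from 34674935 to 34675832 and chromosome 2 from 139258672 to 139260164, at 2.61, 2.53 and 2.52 Mb. The median ratio of 1 h over control was 1.10 at 10 to 20 kb, 1.08 at 20 to 50 kb and 50 to 100 kb, 1.06 at 100 to 250 kb and 1.08 beyond.

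The site on chromosome 10 described above and 4 others were the 5 widest in control. The limit of 2 kb on the merged site leaves such sites almost no room to be wider in another list, so no direction is read from them. On chromosome 4 from 151935749 to 151937720 the span was 1972 bp in control, 1640 bp after 30 min and 1818 bp after 1 h. On chromosome 1 it was 1970, 1638 and 1458 bp from 55351720 to 55353689 and 1969, 1550 and 1839 bp from 108741862 to 108743830. The site on chromosome 11 from 64125355 to 64127316 had spans of 1948, 1556 and 1873 bp. Just inside 2 kb, next to those already named, stood a site of 1992 bp on chromosome 4 from 89204282 to 89206273, and just outside stood regions of 2001 bp on chromosome 10 and of 2002 bp, at 2 places, on chromosome 2. The nearest neighbours just inside the 10 kb limit lay 10016, 10017 and 10017 bp away, and just outside 9996, 9987 and 9976 bp.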

How the data were processed

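ChIP-seq libraries of hTERT RPE-1 cells were fixed with 1% formaldehyde for 10 min. The deposited values are peak positions in bp on hg19 (a start and an end), in 1 list per condition, with no height, score or p. Reads were aligned with Bowtie 1.2.0 and peaks called with MACS2, and deepTools 2.4.1 is also named, per the submitters' processing notes; the peak threshold, background library and combining of libraries: not given in the sources used here. IgG libraries (3) were not analysed here.

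Starts were read as counted from 0 and are printed counted from 1. Distances are the bases between regions. Touching regions with no base between were kept apart. Medians have order-statistic intervals and shares have Wilson intervals, both 95%. Sites are named by rule: the 5 widest in control, the 5 largest gains and losses of span per time, the 5 steadiest, the 5 with most TOP2A peaks, the 5 most remote and 3 on each side of each limit. The limit for a count of 0 is 3 counts. Sites, classes and rules were chosen with earlier results of these data known. The libraries of a group share 1 deposited list, so no comparison could be tested. In simulated lists all 200 planted sites were found, with a planted edge shift of 40 bp found as 40 and 39.5 bp; merging and overlaps gave the values of bedtools 2.31.1. Work was done in Python 3.11.15 with pandas 2.3.3, scipy 1.17.1 and matplotlib 3.10.9.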

Additional observations from a re-analysis of the deposited data

How the results depend on the processing

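No paired analysis was possible because each condition has 1 list for all its libraries; for the same reason no library could be left out. Joining peaks up to 37 bp apart and leaving out those under 159 bp in every list gave 4393 sites. Under this setting, isolation limits of 5 and 20 kb, a width limit of 3 kb, and merging of peaks within 100 bp or of touching peaks, each of 12 tracked values stayed near the reported one: counts within 1.5 times of it, medians and shares inside its 95% interval. Sites numbered 5235 at 5 kb and 2935 at 20 kb, with 592 and 299 wider past 1.5-fold at 1 h. Counting bases in place of span was run for the 6 ratio values and counts, and an overlap of 50% or a place within 1 kb for the TOP2A share; these too stayed within those limits.

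With a width limit of 1 kb there were 2215 sites. The median ratio at 30 min was then 1.00, the right edge shift at 30 min 0 bp, the shifts at 1 h 16 bp (left) and 18 bp (right), and the TOP2A share 2.62%. With only peaks of at least 300 bp the median ratio was 1.03 at 30 min and 1.11 at 1 h, edge shifts were 6 bp (left) and 9 bp (right) at 30 min and 34 bp (left) and 35 bp (right) at 1 h, and 145 sites were narrower past 1.5-fold at 30 min. A looser limit, 125% of the control span or its inverse, gave 575 sites wider and 504 narrower at 30 min, and 1032 wider and 367 narrower at 1 h; a limit of 2-fold gave 64 and 62 at 30 min, and 163 and 54 at 1 h.

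Settings on touching peaks, unbroken sites and shortened spans were chosen after seeing the data. With only sites of 1 peak in each list the TOP2A share was 4.68%. With spans shortened by each list's excess smallest width, the median ratio at 30 min turned to 0.993 and its edge shifts to -4 bp on the left and -4 bp on the right. At 1 h the ratio was then 1.05 and the shifts 13.5 bp (left) and 12.5 bp (right).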

Other observations

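Beside the 4152 isolated sites in all 3 Pol II lists, 2913 isolated regions under 2 kb were missing from at least 1 list. The median merged width was 959 bp in the sites and 203 bp in the regions missing from a list. Of these, 732 had a control peak and no other (median 163 bp), 450 only a 30 min peak (169 bp) and 1055 only a 1 h peak (202 bp). A TOP2A peak lay on 12 of the 2913 (0.412%, 0.236 to 0.719). Under 500 bp the share was 1.60% (0.873 to 2.92) in the sites and 0.394% (0.220 to 0.705) in regions missing from a list. Widths were not alike within this class, and a shorter region has less room for an overlap. The sites without TOP2A in it had a median width of 405.5 bp. None of the 1055 found at 1 h alone held TOP2A, which allows a share of up to 0.284%. A site that is absent cannot be told apart from one that was missed.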
